A study of Mus musculus with 12 samples.

Results

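The 10 genes described here make and finish collagen: P4ha1, P4ha2, P4hb, Serpinh1, Plod1, Plod2, Plod3, Lox, Bmp1 and Pcolce. Their levels were read from every probe set that the platform's annotation gives to 1 of these genes alone, which was 19 probe sets of 45037 on the array (10 genes of 18193 that have such a probe set), and no probe set named a member together with another gene. Of these, 15 probe sets, with at least 1 for each of the 10 genes, were bright enough to be tested, and 4 were not. The hearts came from 3 ILKR211A Tg mice, 3 ILKS343D Tg mice and 6 WT littermates, all C57BL/6 and 8 to 9 weeks old. ILKR211A Tg and ILKS343D Tg mice overexpress in the heart a mutated human integrin-linked kinase (ILK), a scaffold protein of cell adhesions. The R211A form resists activation and the S343D form is constitutively active. Neither the promoter of the transgenes nor the number of founders is stated in the labels or methods. The comparisons ask whether transcripts of these genes differ between each line and WT hearts, and between the lines.

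Collagen chains are modified in the endoplasmic reticulum before they fold. The prolyl 4-hydroxylase, built from catalytic alpha subunits (P4ha1 or P4ha2) and the protein disulfide isomerase P4hb, hydroxylates prolines and so makes the triple helix stable at body temperature. Serpinh1, also called Hsp47, is a chaperone that binds the folded helix, and the lysyl hydroxylases Plod1, Plod2 and Plod3 prepare lysines for glycosylation and cross-linking. Outside the cell, Bmp1 cuts off the C-propeptide, Pcolce enhances that cut, and Lox oxidises lysines to form the cross-links. In the heart, fibroblasts make most of the fibrillar collagen, P4ha1 is a known target of the hypoxia-inducible factor HIF-1, and SERPINH1 is a known target of the heat shock factor HSF1.

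The start regions of the first 4 genes show which letters of these regulators are there. They are RefSeq windows of 300 bases on GRCm38.p6, with 250 bases before the start and 50 after it, written 5′ to 3′ along the gene. The windows are those of P4ha1 (chr10:59323046-59323345, plus strand), P4ha2 (chr11:54100674-54100973, plus strand), P4hb (chr11:120573204-120573503, minus strand) and Serpinh1 (chr7:99353190-99353489, minus strand). Capitals mark the core of the hypoxia response element, ACGTG or GCGTG, on either strand (CACGT and CACGC on the other), with overlapping matches counted separately.
P4ha1: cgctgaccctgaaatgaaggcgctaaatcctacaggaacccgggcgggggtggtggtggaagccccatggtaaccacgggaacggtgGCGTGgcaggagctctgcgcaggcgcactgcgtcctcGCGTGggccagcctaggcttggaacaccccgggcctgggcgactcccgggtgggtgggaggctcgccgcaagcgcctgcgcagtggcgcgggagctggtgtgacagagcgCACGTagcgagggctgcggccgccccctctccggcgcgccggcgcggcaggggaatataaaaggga
P4ha2: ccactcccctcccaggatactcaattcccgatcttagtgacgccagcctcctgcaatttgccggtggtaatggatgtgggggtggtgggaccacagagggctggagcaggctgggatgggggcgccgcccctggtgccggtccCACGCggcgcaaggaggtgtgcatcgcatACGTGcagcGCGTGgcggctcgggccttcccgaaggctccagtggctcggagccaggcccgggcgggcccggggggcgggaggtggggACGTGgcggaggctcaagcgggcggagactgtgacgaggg
P4hb: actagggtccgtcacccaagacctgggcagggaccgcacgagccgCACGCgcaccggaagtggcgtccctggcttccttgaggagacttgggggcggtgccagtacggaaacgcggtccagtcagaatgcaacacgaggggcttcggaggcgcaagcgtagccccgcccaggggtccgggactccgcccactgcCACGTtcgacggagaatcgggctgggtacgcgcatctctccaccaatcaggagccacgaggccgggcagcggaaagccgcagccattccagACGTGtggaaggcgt
Serpinh1: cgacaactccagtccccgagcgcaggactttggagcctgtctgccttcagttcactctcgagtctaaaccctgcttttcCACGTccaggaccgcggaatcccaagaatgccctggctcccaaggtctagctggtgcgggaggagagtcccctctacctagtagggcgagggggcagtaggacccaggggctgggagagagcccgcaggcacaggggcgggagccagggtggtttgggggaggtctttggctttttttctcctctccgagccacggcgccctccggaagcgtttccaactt
A window was given for 7 of the 10 genes (these 4, Plod1, Plod3 and Pcolce), and each of the 7 held at least 1 hypoxia core, against 43.8% of all 32851 windows in the RefSeq table. There were 3 cores in the window of P4ha1, 4 in that of P4ha2, 3 in that of P4hb and 1 in that of Serpinh1. A heat shock element of 3 units, in which GAA and TTC alternate with any 2 bases between units, searched on both strands, was in none of the 7 windows, against 0.603% of all windows. For the HSF1 target chaperones listed below, such an element was in a window of 4 of the 14 genes with an entry. A shorter match, 1 GAA and 1 TTC with any 2 bases between, was in the windows of 2 of the 7 genes, against 15.1% of all windows. All of these are matches of letters in a short window. The shares over all windows were not matched for base composition, so they show no enrichment, and no binding was measured.

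Gene expression was measured with 1 Affymetrix mouse array per heart, and the values are MAS5 signals on a linear scale, brought to a common trimmed mean on each array. Levels are therefore compared between hearts for 1 probe set, never between probe sets. WT mice carry 2 runs of replicate numbers, called the first and the second set here, and hearts numbered 1 to 6 are the ILKS343D Tg mice and the first set, whereas hearts 7 to 12 are the ILKR211A Tg mice and the second set. No label says which line a set belongs to, so all 6 WT hearts served in each comparison. By the labels, replicate 1 of the first set was a male whose left ventricle was used, and all other mice were females with only the heart named. The study's methods mention infarcted groups, whereas the labels name no surgery. Signals of Ilk, the gene that checks the labels, were 8223 to 9553 in ILKR211A Tg, 3258 to 4016 in ILKS343D Tg and 551 to 657 in WT hearts. Array medians were 41.5 to 46.5 in ILKR211A Tg, 45.1 to 49.1 in ILKS343D Tg and 43.1 to 47.2 in WT hearts. Cardiomyocyte markers were bright in all hearts, and the 3 with the smallest p in ILKR211A Tg against WT had log2 fold changes of -0.04 (Ryr2), -0.04 (Tnnt2) and 0.02 (Pln). Summed signals of 3 atrial markers (Sln, Myl7, Myl4) spanned 827 to 12066 in ILKR211A Tg, 265 to 13237 in ILKS343D Tg and 511 to 9207 in WT hearts, so that each group held hearts with low and with high sums, and the part of this spread in the results below was not tested.

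In ILKR211A Tg hearts, the prolyl 4-hydroxylase alpha subunit P4ha1 had a signal about 1.55 times that of WT hearts, and Serpinh1 1.28 times, but no probe set of the 10 genes passed the threshold over all probe sets tested. Of the 15 tested probe sets, 0 were called at an adjusted p under 0.05 by limma (Benjamini-Hochberg over 22519 probe sets, two-sided, lowest adjusted p = 0.103), where 0.204% of all tested probe sets were called (28 higher and 18 lower, or 25 and 9 after median centring of the arrays). At an unadjusted p under 0.05 there were 5 higher probe sets (P4ha1 with 2, Serpinh1 with 2 and Plod1 with 1) and 0 lower ones, where 3.51% of all tested probe sets were higher and 4.0% lower. Higher in every ILKR211A Tg heart than in every WT heart were 4 of the 15, against 2.12% of all tested probe sets, and 0 were lower in every one, against 1.95%. The median log2 fold change was 0.18 over the 15 and 0.00081 over all tested, and 13 of the 15 lay above 0, against 50.2% of all tested. Because probe sets of 1 gene and genes of 1 pathway are not independent, these shares are descriptions. With the replicate number within each range of heart numbers as a block, a fit added after seeing the data, 8 of the 15 were higher at an unadjusted p under 0.05 (the same 5, P4ha2 and both of Pcolce), where 4.75% of all tested were.

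P4ha1 encodes the main alpha subunit of most tissues. Its brighter probe set, 1452094_at, had signals of 291, 393 and 495 in ILKR211A Tg hearts, 226, 246 and 237 in ILKS343D Tg hearts, and a lowest, median and highest of 205, 253 and 278 in WT hearts. Every ILKR211A Tg heart lay above every other heart, and the 3 ILKR211A Tg hearts spread more widely (SD 102) than the 3 ILKS343D Tg hearts (SD 10.2) or the 6 WT hearts (SD 24.3). The log2 fold change of ILKR211A Tg against WT was 0.63 ± 0.134 (standard error from limma), a fold of 1.55 with a 95% interval of 1.27 to 1.89 (limma, adjusted p = 0.103). The exact permutation test gave p = 0.0119, the smallest that 3 mice against 6 allow. P4ha1 is also on a list of raised genes that the study chose on these same samples, so its direction here is not independent evidence.

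The second P4ha1 probe set, 1426519_at, gave a like picture with more spread in ILKS343D Tg hearts. Its signals were 267, 321 and 424 in ILKR211A Tg hearts, 145, 164 and 258 in ILKS343D Tg hearts, and a lowest, median and highest of 179, 208 and 247 in WT hearts. Again the ILKR211A Tg hearts lay above all others. The fold against WT was 1.56 with a 95% interval of 1.20 to 2.02 (limma, adjusted p = 0.273). The call for P4ha1 turned on the model and on single mice. Without ILKR211A Tg replicate 1, the lowest of its group, 1452094_at passed against WT (log2 fold change 0.83, limma, adjusted p = 0.00822), and without ILKR211A Tg replicate 3 it was further from passing (limma, adjusted p = 0.453). With the block within ranges it also passed (log2 fold change 0.68, limma, adjusted p = 0.0355), and 1426519_at did not (limma, adjusted p = 0.131). With the number as a block over all sets both passed (limma, adjusted p = 0.0272 for 1452094_at and 0.0163 for 1426519_at). The check of pairing described below gives no ground for a block over all sets.

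P4ha2, the other common alpha subunit, did not overlap between the lines, whereas each line overlapped WT hearts, and it was called in no comparison. Of all tested probe sets, 7.55% were higher in every ILKR211A Tg heart than in every ILKS343D Tg heart and 7.4% were lower in every one. Probe set 1417149_at had signals of 281, 424 and 391 in ILKR211A Tg hearts, 229, 261 and 229 in ILKS343D Tg hearts, and a lowest, median and highest of 200.4, 298 and 372 in WT hearts. WT hearts covered the whole range of the ILKS343D Tg hearts, and 2 of the 3 ILKR211A Tg hearts were above the highest WT heart. The log2 fold change was 0.32 in ILKR211A Tg (limma, adjusted p = 0.693) and -0.27 in ILKS343D Tg (limma, adjusted p = 0.995), both against WT. The WT sets differed by 0.31 in this probe set (first minus second, limma, adjusted p = 0.675), so against the set in its own range of heart numbers the value was 0.47 in ILKR211A Tg and -0.43 in ILKS343D Tg.

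P4hb, which serves the hydroxylase as its beta subunit and is a general disulfide isomerase as well, did not separate the groups. Probe set 1437465_a_at had signals of 1971, 1995 and 1986 in ILKR211A Tg hearts, 1979, 1901 and 1932 in ILKS343D Tg hearts, and a lowest, median and highest of 1878, 1999.9 and 2321 in WT hearts. All 6 transgenic hearts lay inside the WT range. The 95% interval of the fold was 0.891 to 1.07 in ILKR211A Tg hearts and 0.87 to 1.05 in ILKS343D Tg hearts, both against WT. The difference between the fold of P4ha1 and that of P4hb in ILKR211A Tg hearts was not itself tested.

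**Figure D1:**
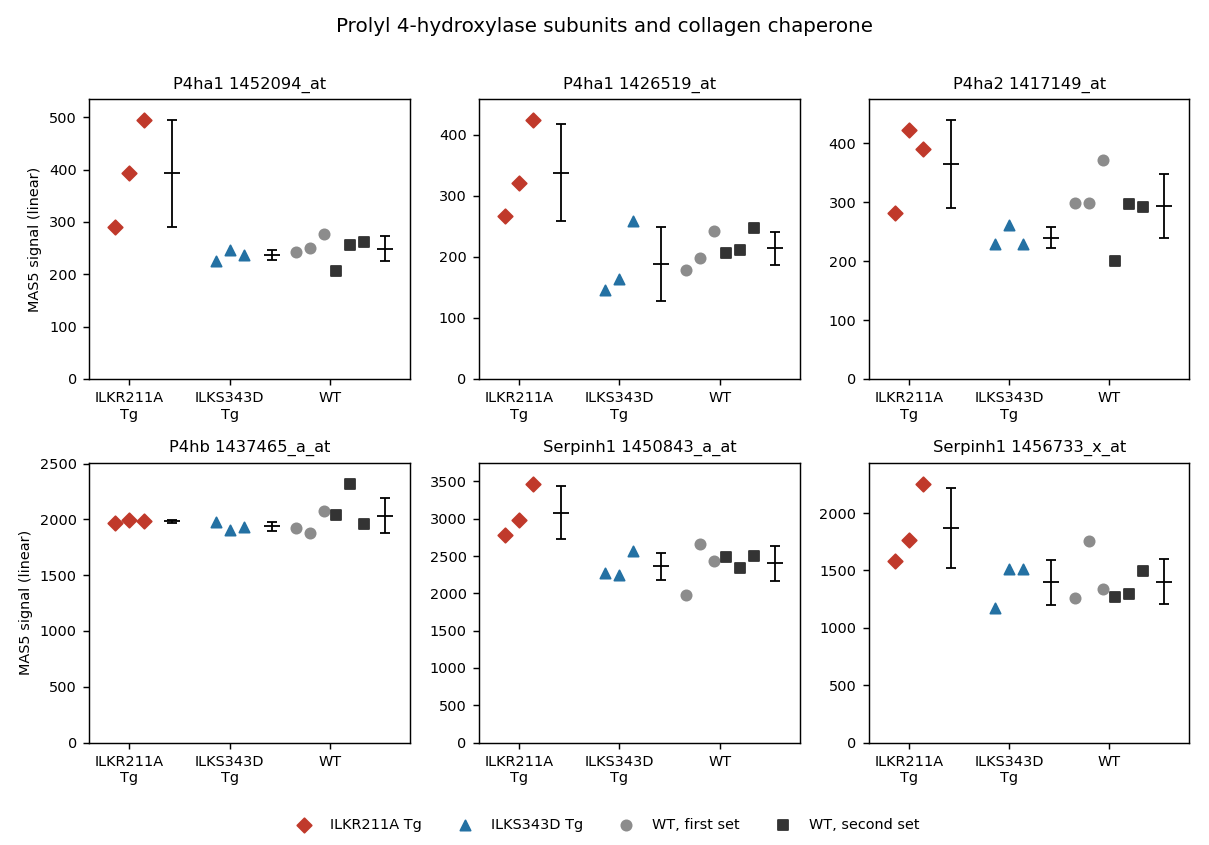
Signal of each heart (points, linear MAS5 units on the vertical axis) for the tested probe sets of P4ha1, P4ha2, P4hb and Serpinh1 in ILKR211A Tg, ILKS343D Tg and WT hearts, with the mean and SD of each group beside the points (n = 3, 3 and 6) and WT hearts marked by set. For P4ha1 1452094_at the ILKR211A Tg hearts span 291 to 495, above all WT hearts (205 to 278), whereas for P4hb the groups overlap.

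Serpinh1, the collagen chaperone, had the next smallest p among the 10 genes. Probe set 1450843_a_at had signals of 2783, 2982 and 3472 in ILKR211A Tg hearts, 2274, 2244 and 2566 in ILKS343D Tg hearts, and a lowest, median and highest of 1979, 2465 and 2665 in WT hearts. The ILKR211A Tg hearts were above all others, and the ILKS343D Tg hearts lay within the WT range. The log2 fold change of ILKR211A Tg against WT was 0.36 ± 0.0903 (standard error from limma), a fold of 1.28 with a 95% interval of 1.12 to 1.46 (limma, adjusted p = 0.219, exact permutation p = 0.0119). The second probe set, 1456733_x_at, had signals of 1581, 1766 and 2257 in ILKR211A Tg hearts, 1168, 1513 and 1510.0 in ILKS343D Tg hearts, and a lowest, median and highest of 1262, 1316 and 1758 in WT hearts. Here 1 ILKR211A Tg heart fell inside the WT range, and the fold was 1.33 with a 95% interval of 1.10 to 1.60 (limma, adjusted p = 0.37). In ILKS343D Tg hearts the fold against WT was 0.985 and 0.997 for the 2 probe sets, with 95% intervals of 0.861 to 1.13 and 0.826 to 1.20.

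Plod1, the lysyl hydroxylase that acts on helical lysines, was higher in each ILKR211A Tg heart than in any WT heart, by a smaller margin. Probe set 1416289_at had signals of 784, 813 and 895 in ILKR211A Tg hearts, 633, 579 and 838 in ILKS343D Tg hearts, and a lowest, median and highest of 565, 702 and 769.7 in WT hearts. ILKS343D Tg replicate 3 lay among the ILKR211A Tg hearts, so the lines overlapped. The fold of ILKR211A Tg against WT was 1.22 with a 95% interval of 1.03 to 1.44 (limma, adjusted p = 0.584).

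Plod2, which hydroxylates the telopeptide lysines used in the cross-links of fibrotic tissue, did not separate the groups. Probe set 1416687_at had signals of 477, 471 and 476 in ILKR211A Tg hearts, 437, 465 and 481 in ILKS343D Tg hearts, and a lowest, median and highest of 408, 469.8 and 523 in WT hearts. Probe set 1416686_at had signals of 434, 415 and 449.7 in ILKR211A Tg hearts, 436, 452 and 545 in ILKS343D Tg hearts, and a lowest, median and highest of 379.5, 419 and 513 in WT hearts. The groups overlapped in both, and the 95% intervals of the fold of ILKR211A Tg against WT were 0.913 to 1.14 and 0.873 to 1.18.

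Plod3, which also carries the glycosyltransferase activity of the family, had signals of 522, 533 and 515 in ILKR211A Tg hearts, 509, 506 and 555 in ILKS343D Tg hearts, and a lowest, median and highest of 477, 509.9 and 530.2 in WT hearts (1415901_at). Its fold was 1.03 in each line against WT, with a 95% interval of 0.946 to 1.13 in ILKR211A Tg hearts and 0.945 to 1.13 in ILKS343D Tg hearts. The groups overlapped.

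Lox, the oxidase that starts the cross-links, was dim and was called in no comparison. Probe set 1416121_at had signals of 59.8, 39.0 and 36.1 in ILKR211A Tg hearts, 51.7, 72.4 and 57.8 in ILKS343D Tg hearts, and a lowest, median and highest of 43.4, 48.1 and 60.1 in WT hearts. The log2 fold change against WT was -0.18 in ILKR211A Tg (limma, adjusted p = 0.908) and 0.28 in ILKS343D Tg (limma, adjusted p = 0.995), with overlap in both. Its other 2 probe sets were below the limit for testing and did not repeat this order: 1448228_at had 38.8, 32.5 and 35.6 in ILKR211A Tg hearts, 29.2, 26.4 and 23.5 in ILKS343D Tg hearts, and a lowest, median and highest of 20.0, 27.8 and 34.0 in WT hearts. 1437903_at stayed under 14 in every heart. No direction for Lox can be read from these 3 probe sets.

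Bmp1, the procollagen C-proteinase, had signals of 199, 221 and 208 in ILKR211A Tg hearts, 196, 215 and 266 in ILKS343D Tg hearts, and a lowest, median and highest of 178, 208 and 234 in WT hearts on probe set 1426238_at. On 1427457_a_at its signals were 68.5, 60.1 and 69.8 in ILKR211A Tg hearts, 54.6, 64.6 and 76.8 in ILKS343D Tg hearts, and a lowest, median and highest of 48.1, 59.6 and 64.8 in WT hearts. The groups overlapped on both probe sets, with log2 fold changes against WT of 0.0066 and 0.18 in ILKR211A Tg hearts and 0.10 and 0.16 in ILKS343D Tg hearts. The remaining probe set, 1427458_at, was too dim to be tested and had 12.8, 20.9 and 17.4 in ILKR211A Tg hearts, 9.50, 10.0 and 8.20 in ILKS343D Tg hearts, and a lowest, median and highest of 13.7, 23.8 and 38.2 in WT hearts. All 3 ILKS343D Tg hearts were below every WT heart there, which the 2 brighter probe sets did not show. With no filter on dim probe sets, its adjusted p was 0.998 (limma).

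Pcolce, the enhancer of that cleavage, had signals of 752, 757 and 822 in ILKR211A Tg hearts, 573, 816 and 781 in ILKS343D Tg hearts, and a lowest, median and highest of 571, 689.7 and 874 in WT hearts (1437165_a_at). On 1448433_a_at its signals were 557, 473 and 495 in ILKR211A Tg hearts, 385, 452 and 518 in ILKS343D Tg hearts, and a lowest, median and highest of 331, 406 and 588 in WT hearts. The ILKR211A Tg hearts lay inside the WT range on both probe sets. The log2 fold change of ILKR211A Tg against WT was 0.18 and 0.29 (limma, adjusted p = 0.849 and 0.689). The WT sets differed by 0.24 and 0.30 (first minus second) on these probe sets. By number, each ILKR211A Tg heart was above the heart of the second set (752 against 737, 757 against 571 and 822 against 600.3 on 1437165_a_at, and 557 against 433, 473 against 331 and 495 against 363 on 1448433_a_at). No label states this pairing. Every ILKR211A Tg heart was above every heart of the second set on both probe sets, so any pairing with that set would give the same. The second set was the lower of the WT sets on both probe sets. The share of all tested probe sets that separate from it in this way was not computed. Between the lines, with groups of the same size, 7.55% of all tested probe sets were higher in every ILKR211A Tg heart. No difference in Pcolce can therefore be read from this separation. The first set held the highest WT signals, 874 and 588. Against the second set the log2 fold changes were 0.30 and 0.44, with adjusted p = 0.482 and 0.337 by limma with the block within ranges. The last probe set, Plod1 1445893_at, was below the limit for testing, with 18.0 to 48.2 in ILKR211A Tg hearts, 26.4 to 50.3 in ILKS343D Tg hearts and 20.7 to 63.0 in WT hearts.

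**Figure D2:**
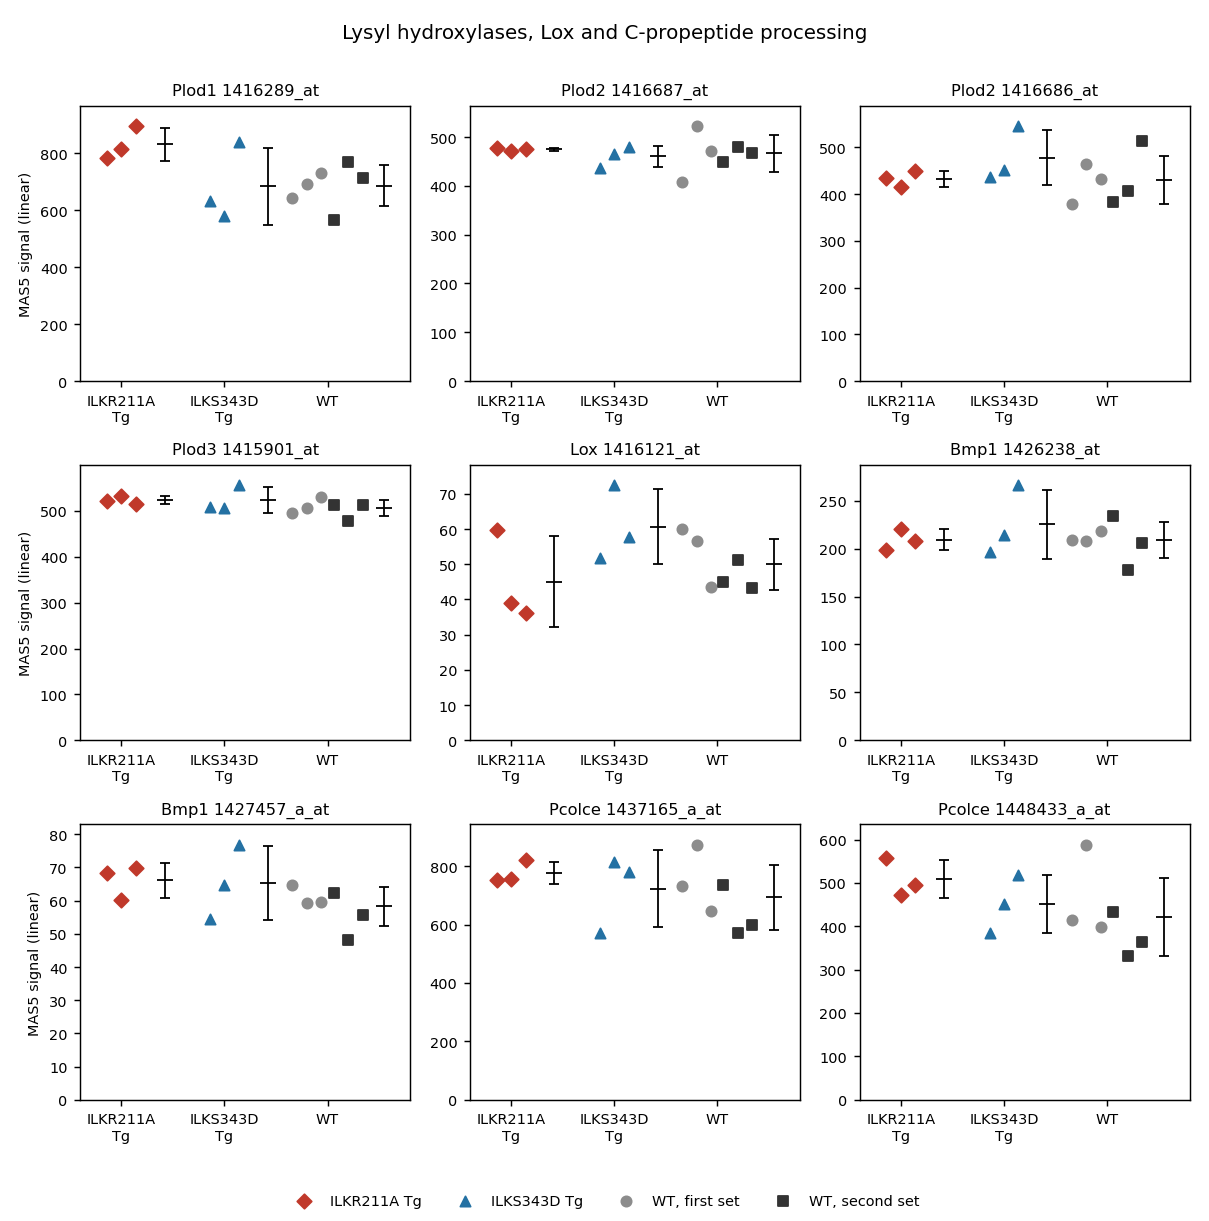
Signal of each heart (points, linear MAS5 units on the vertical axis) for the tested probe sets of Plod1, Plod2, Plod3, Lox, Bmp1 and Pcolce in ILKR211A Tg, ILKS343D Tg and WT hearts, with the mean and SD of each group (n = 3, 3 and 6). For Plod1 1416289_at the ILKR211A Tg hearts (784 to 895) stand above the WT hearts (565 to 769.7), and in the other 8 panels these groups overlap.

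In ILKS343D Tg hearts none of the 10 genes was called. By limma 0 of the 15 probe sets had an adjusted p under 0.05 (lowest adjusted p = 0.995), where 0.00444% of all tested probe sets were called, and 0 had an unadjusted p under 0.05, where 3.98% of all tested did in either direction. No tested probe set was higher in every ILKS343D Tg heart than in every WT heart, against 1.11% of all tested, and none was lower in every one, against 0.919%. The log2 fold changes ran between -0.27 (P4ha2) and 0.28 (Lox), with a median of -0.0045, where the median of all tested was 0.0026, and 7 of the 15 lay above 0, against 50.8% of all tested. For P4ha1 they were -0.07 and -0.22, with 95% intervals of the fold of 0.782 to 1.16 and 0.664 to 1.12.

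**Figure D3:**
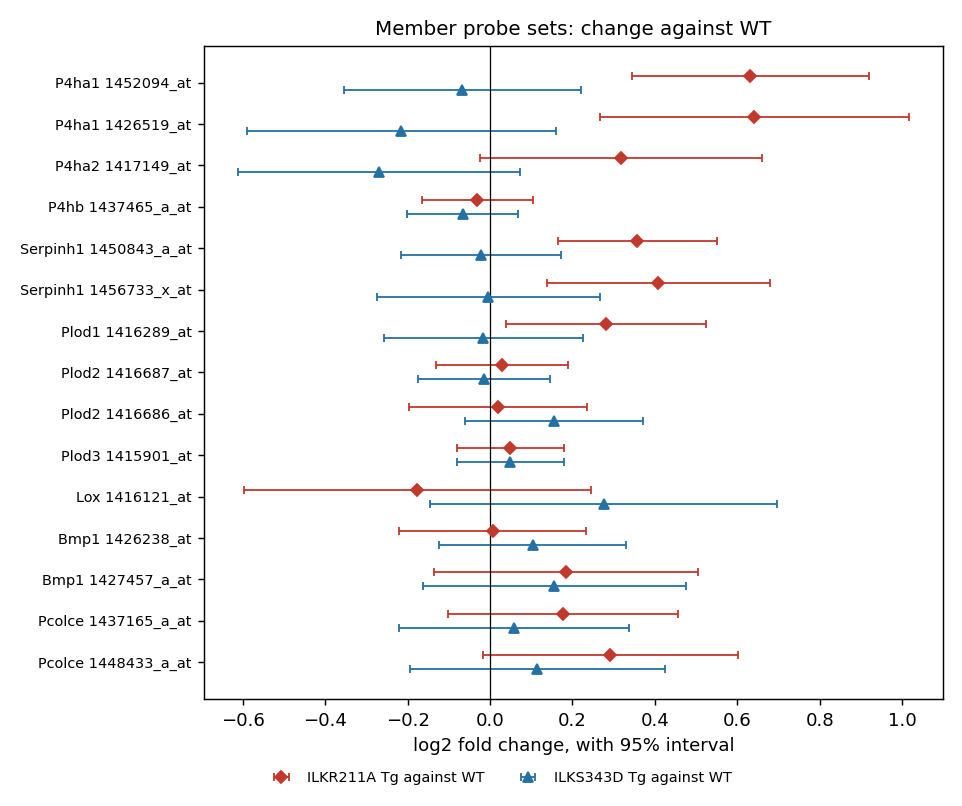
Log2 fold change of the 15 tested probe sets (horizontal axis, points) with its 95% interval from limma (bars), for ILKR211A Tg against WT and ILKS343D Tg against WT. The intervals of P4ha1, Serpinh1 and Plod1 in ILKR211A Tg lie above 0, no adjusted p is under 0.05, and all intervals of ILKS343D Tg include 0.

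Set directly against each other, the lines had their smallest p-values for P4ha1. Of the 15 probe sets 0 were called for ILKR211A Tg against ILKS343D Tg (limma, lowest adjusted p = 0.125), where 0.16% of all tested were (21 higher and 15 lower, or 23 and 5 after median centring), and 6 had an unadjusted p under 0.05 and were higher in ILKR211A Tg, where 4.26% of all tested did, with 0 lower, where 4.18% of all tested did. Higher in every ILKR211A Tg heart than in every ILKS343D Tg heart were 5 (P4ha1 with 2, P4ha2 and Serpinh1 with 2), against 7.55% of all tested probe sets, and 0 were lower in every one, against 7.4%. Above 0 were 12 of the 15, against 48.9%. For 1452094_at of P4ha1 the fold was 1.62 with a 95% interval of 1.29 to 2.04 (limma, adjusted p = 0.125), for 1426519_at it was 1.81 with 1.34 to 2.44 (limma, adjusted p = 0.157), and for P4ha2 it was 1.50 with 1.14 to 1.98 (limma, adjusted p = 0.379). The comparison shares its ILKR211A Tg hearts with the comparison to WT. When each line was set against the WT set in its own range of heart numbers, the difference between the changes was 0.80 ± 0.223 for 1452094_at, 0.75 ± 0.293 for 1426519_at and 0.90 ± 0.242 for P4ha2 (log2, standard errors from limma), with adjusted p = 0.472, 0.637 and 0.461, where 0.0133% of all tested probe sets were called. Without ILKR211A Tg replicate 1, P4ha1 1452094_at passed between the lines (log2 fold change 0.90, limma, adjusted p = 0.0165), and without ILKS343D Tg replicate 3, 1426519_at passed (1.11, limma, adjusted p = 0.0445). With the replicate number as a block over all sets, for which the check of pairing gives no ground, both P4ha1 probe sets passed between the lines (limma, adjusted p = 0.049 and 0.0116). With the block within ranges neither did (limma, adjusted p = 0.153 and 0.214). The exact permutation test cannot go below p = 0.1 for 3 mice against 3.

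Within a group, the highest and the lowest heart varied by probe set. ILKR211A Tg replicate 3 was the highest of its group in 8 of the 15 tested probe sets and replicate 1 the lowest in 9, and ILKS343D Tg replicate 3 was the highest of its group in 9. The shares over all tested probe sets were not computed, and several of the 15 belong to 1 gene, so no unevenness can be read from these counts. The 2 P4ha1 probe sets, both Serpinh1 probe sets and Plod1 were highest of the ILKR211A Tg group in replicate 3. Lox was the lowest of the group there (-0.46 from the WT mean, log2), and P4hb (-0.03) and Plod3 (0.03) were close to the WT mean. After group means were subtracted, the 2 probe sets of a gene correlated across the 12 hearts with r between 0.594 and 0.859 over 5 pairs, and probe sets of different genes with r between -0.677 and 0.855 over 100 pairs (median 0.224). P4ha1 1452094_at and P4ha2 correlated at 0.801, and P4ha1 1426519_at and P4ha2 at 0.277. The hearts share the array and its scaling, so these are descriptions. Most like P4ha1 among 11188 other genes were Chordc1 (r = 0.884), Rnaseh1 (0.872), Cyhr1 (0.854), Cct3 (0.851) and Nlk (0.844), and most like Serpinh1 were Gatad2a (0.944), Tmem168 (0.939), Rgs4 (0.937), Cep170 (0.905) and Cdca4 (0.898). The highest of so many correlations over 12 hearts are large by selection. Of these 10, Cdca4 was called in ILKR211A Tg against WT (log2 fold change 0.70, limma, adjusted p = 0.0262), where 14 of 11189 genes rose. The others were not called and went in both directions, down to -1.06 for Rnaseh1 (limma, adjusted p = 0.424).

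**Figure D4:**
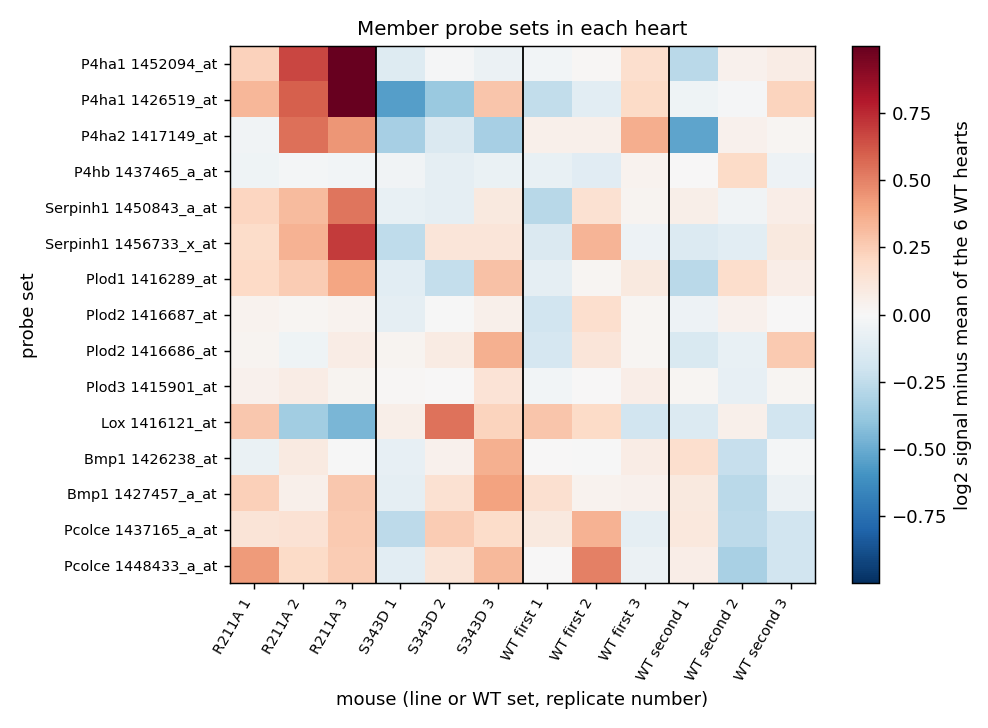
Log2 signal of the 15 tested probe sets (rows) in each of the 12 hearts (columns, by line or WT set and replicate number) minus the mean of the 6 WT hearts, on a colour scale from blue (lower) to red (higher). The P4ha1 and Serpinh1 rows are red in the 3 ILKR211A Tg columns, darkest in replicate 3, and the P4hb and Plod3 rows are pale throughout.

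The collagen genes were read beside lists of neighbouring pathways, each gene from its brightest probe set. Read this way the 10 collagen genes had a median log2 fold change of 0.11 in ILKR211A Tg and -0.02 in ILKS343D Tg hearts against WT, where the median of all 11189 genes tested was -0.0014 and -0.00077. Over all these genes 0.125% rose and 0.0804% fell in ILKR211A Tg hearts and 0.00894% were called in ILKS343D Tg hearts (limma, adjusted p under 0.05), and 7.52% and 3.79% had an unadjusted p under 0.05, so that a list of this size without a call is near the background. Among the other collagen modifying and folding enzymes, 0 of 13 tested rose and 0 fell in ILKR211A Tg hearts (median -0.04). P3h1, the prolyl 3-hydroxylase that acts with Crtap on collagen, had 0.35 (limma, adjusted p = 0.548), Hspa5, the main Hsp70 of the endoplasmic reticulum, had -0.29, and Crtap had 0.13. Among the other processing and cross-linking genes, 0 of 11 rose and 0 fell in either line, with a median of 0.08 in ILKR211A Tg and 0.17 in ILKS343D Tg hearts. Above 0 were 9 of the 11 in ILKR211A Tg and 10 in ILKS343D Tg hearts, against 49.5% and 49.8% of all genes. At an unadjusted p under 0.05 (limma), 0 differed in ILKR211A Tg hearts. In ILKS343D Tg hearts 2 were higher and 0 lower, where 222 of 11189 genes were higher. Tgm2, a transglutaminase that cross-links matrix proteins, had 0.10 in ILKR211A Tg hearts, Adamts3, a procollagen N-proteinase, had -0.17 and Loxl3, a lysyl oxidase, had 0.13.

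No transcript of the substrate was called. Of 18 collagen chains tested, 0 rose and 0 fell in ILKR211A Tg hearts (limma, 0 at an unadjusted p under 0.05, against 7.52% of all genes) and likewise in ILKS343D Tg hearts (against 3.79%), with medians of 0.04 and 0.06. Those with the smallest p in ILKR211A Tg hearts were Col4a3 (-0.33), Col18a1 (0.34) and Col1a1 (0.16, a chain of the main fibrillar collagen). Fibroblast markers, 7 of 7 tested, had 0 called in either line, with a median of 0.02 in ILKR211A Tg and 0.14 in ILKS343D Tg hearts and summed signals of 8043 to 9579 in ILKR211A Tg, 8667 to 9968 in ILKS343D Tg and 7729 to 9622 in WT hearts. Ddr2, a collagen receptor, had -0.24 in ILKR211A Tg hearts (limma, unadjusted p = 0.0195, adjusted p = 0.548), Pdgfra had 0.28 and Dpt 0.11. In tissue RNA, fewer cells of a type and less RNA per cell cannot be told apart. Activated fibroblast markers (Postn at 0.09, Comp at 0.10 and Acta2 at 0.29 in ILKR211A Tg hearts, 3 tested) had 0 called. Summed signals of the list were 2875 to 3238 in ILKR211A Tg, 2449 to 3359 in ILKS343D Tg and 1676 to 2888 in WT hearts. Acta2 was by far the brightest gene of the list and is also a smooth muscle marker. These sums therefore mostly follow Acta2 and do not single out activated fibroblasts. The part of these markers in the P4ha1 values was not tested. TGF-beta signalling and fibrosis genes had 0 of 17 called in either line, with Tgfb1 at 0.15, Ccn2 at 0.32 and Tgfb3 at 0.21 in ILKR211A Tg hearts.

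HIF prolyl hydroxylases and HIF targets, the group to which P4ha1 also belongs, had 0 of 17 called in either line, with medians of -0.02 in ILKR211A Tg and -0.04 in ILKS343D Tg hearts. Slc2a1, the glucose transporter GLUT1, had 0.46 in ILKR211A Tg hearts (limma, adjusted p = 0.261), Pdk1 had 0.17 and Hif1a had -0.15. Disulfide isomerases and chaperones of the endoplasmic reticulum, relatives of P4hb, had 0 of 16 called in either line, with a median of -0.11 in ILKR211A Tg and -0.07 in ILKS343D Tg hearts. Manf, a secreted stress protein of the endoplasmic reticulum, had -0.45, Canx, a lectin chaperone, -0.16 and Dnajb11, a co-chaperone of Hspa5, -0.34 in ILKR211A Tg hearts, none of them called. At an unadjusted p under 0.05 (limma) these 3 of the 16 were lower and 0 were higher, where 453 of 11189 genes were lower. Above 0 in ILKR211A Tg hearts were 4 of the 16, against 49.5% of all genes.

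HSF1 target chaperones were the list with calls. In ILKR211A Tg hearts 6 of 17 tested rose against WT (Hspa1a, Hspa1b, Hsph1, Hsp90aa1, Stip1 and Hspa8) and 0 fell, where 14 rose and 9 fell of all 11189 genes, with a median of 0.48, and in ILKS343D Tg hearts 0 rose and 0 fell, with a median of -0.07. The log2 fold changes of the 6 in ILKR211A Tg hearts were between 0.49 (Hspa8, limma, adjusted p = 0.0251) and 1.73 (Hspa1a, limma, adjusted p = 0.0032). Over all 17 they ran between 0.12 (Bag3) and 1.73. P4ha1 at 0.63 and Serpinh1 at 0.36 lay in this wide range, as did genes of other lists (Slc2a1 at 0.46 and P3h1 at 0.35). A link between the collagen genes and the chaperones was not tested. Hspa1a and Hspa1b have nearly identical coding sequences, which their probe sets may not tell apart. Several of these chaperones are on the same list of raised genes chosen on these samples, and their direction is not independent evidence either. Their summed signals were 39355 to 46613 in ILKR211A Tg, 30676 to 33053 in ILKS343D Tg and 32042 to 36868 in WT hearts.

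**Figure D5:**
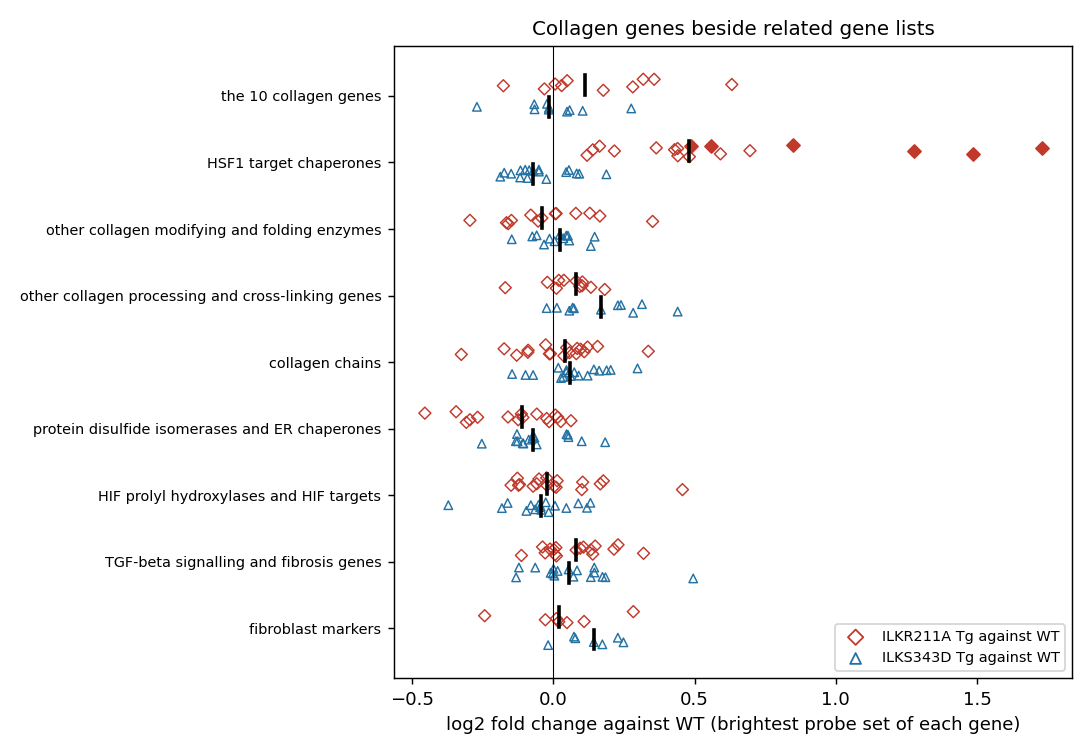
Log2 fold change against WT (horizontal axis) of each gene, from its brightest probe set, in the 10 collagen genes and 8 related lists, for ILKR211A Tg and ILKS343D Tg hearts, with the median of each list as a black bar and filled symbols for an adjusted p under 0.05. Filled symbols occur for 6 HSF1 target chaperones in ILKR211A Tg hearts, whereas the collagen genes have none and a median of 0.11 in ILKR211A Tg and -0.02 in ILKS343D Tg hearts.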

How the data were processed

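RNA from 12 mouse hearts was hybridized to Affymetrix arrays, 1 array per mouse, so p-values rest on the spread between mice within groups, with the noise of the arrays included. Each line lies in 1 range of heart numbers, so line and range cannot be told apart between the lines. The deposited values are linear signal intensities, which the authors computed with MAS5 (GCOS in the study's methods) and scaled so that the trimmed mean of every array, without the lowest and highest 2%, lies between 149.954 and 149.958. Detection calls were not used here. The number of arrays limits the precision.

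After 64 array controls were set aside, signals were taken to log2 with nothing added. Probe sets whose mean log2 signal reached the median over all (5.44, or 43.5 in signal) were tested, 22519 of 45037. By the platform annotation, 34945 probe sets name a single gene, 932 name several and 9160 name none. Comparisons used limma 3.58.1 in R 4.3.3 (linear models, empirical Bayes with a trend, 3 genotype groups on all 12 arrays), two-sided, with Benjamini-Hochberg adjusted p under 0.05, and exact permutation tests over mice. Figures were drawn with matplotlib 3.10.9. On simulated data for ILKR211A Tg against WT, with 200 changed of 22519 tested probe sets in each of 5 datasets, 54.4% of 1.5-fold and 82.8% of 2-fold changes were recovered, and 4.14% of calls were false. The noise was normal, independent between probe sets and of equal spread in all groups, and the planted changes were 1.5- to 4-fold. The real data differ in these points, so the recovery need not hold for the members.

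The 10 genes and the gene lists were chosen with earlier results of these data known. All probe sets of the 10 genes are given. From each list described the called genes are named, or otherwise the 3 with the smallest p in ILKR211A Tg against WT, and for P4ha1 and Serpinh1 the 5 genes most alike over the hearts.

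Whether replicate numbers pair the mice was checked by correlating deviations from set means. For ILKR211A Tg and the second WT set, r was 0.167, 0.179 and 0.119 for the same numbers, and for ILKS343D Tg and the first WT set 0.071, 0.209 and 0.17. Between the ranges of heart numbers, same numbers gave r between -0.205 and -0.008. The title of ILKS343D Tg replicate 1 carries no number. A fit with the number within each range of heart numbers as a block was added after seeing the data. Other alternatives changed the scaling, the offset before log2, the filter, the variance prior, the weights of arrays, the WT set, the block, the threshold and the mice left out.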

Additional observations from a re-analysis of the deposited data

How the results depend on the processing

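For ILKR211A Tg against WT the 0 member probe sets called became 2 with the replicate number as a block over all sets (both of P4ha1, limma, adjusted p = 0.0272 and 0.0163), 1 with the replicate block within each range of heart numbers (a fit chosen after seeing the data), and 5 at an unadjusted p under 0.05. Leaving out each mouse in turn gave 0 to 1. For ILKR211A Tg against ILKS343D Tg the 0 became 2 with the replicate block (both of P4ha1, limma, adjusted p = 0.049 and 0.0116) and 6 at an unadjusted p, and leaving out each mouse gave 0 to 1, with 1 without ILKR211A Tg replicate 1 (1452094_at, log2 fold change 0.90, limma, adjusted p = 0.0165) or without ILKS343D Tg replicate 3 (1426519_at, 1.11, limma, adjusted p = 0.0445). The replicate block changed no call for ILKS343D Tg against WT, which stayed at 0 under every alternative. The block over all sets joins numbers whose deviations correlated between -0.205 and 0.209 over 18 pairs (median -0.0185). Over 36 pairs of unlike numbers the median was -0.0175. Of 12 mice, 10 were closest to a mouse of another set with the same number, always within 1 range of heart numbers. Same numbers in different ranges correlated between -0.205 and -0.008. The matches within ranges therefore give no ground for a block over all sets. P4ha1, P4ha2, both Serpinh1 probe sets and Plod1 kept their sign in ILKR211A Tg against WT under all 28 alternatives. Over all probe sets, the calls for ILKR211A Tg against WT ran between 33 and 59, against 46, and between the lines between 1 (replicate block within ranges) and 55 (array weights), against 36.

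Signs turned only for probe sets whose main value lay between -0.097 and 0.119 (log2 fold changes throughout), and the cause was not tested. For ILKR211A Tg against WT, P4hb was 0.0035 with each array centred on its median, 0.020 against the WT set in the other range, and -0.054 to 0.0075 when single mice were left out. Plod2 was -0.0082 (1416687_at) and -0.014 (1416686_at) without the mouse labelled male, with -0.0082 to 0.063 and -0.014 to 0.073 without single mice. Bmp1 1426238_at was -0.023 with array weights, -0.019 against the WT set in the other range, and -0.039 to 0.043 without single mice. For ILKS343D Tg against WT, the same value came from the WT set in the same range, the heart number range as a block and the replicate block within ranges: 0.0089 for Serpinh1 1450843_a_at, -0.061 for Pcolce 1437165_a_at and -0.034 for Pcolce 1448433_a_at. Serpinh1 1456733_x_at was 0.043 against the WT set in the other range. Without single mice, Serpinh1 was -0.083 to 0.013 and -0.067 to 0.12, Plod1 -0.17 to 0.095, Plod2 1416687_at -0.053 to 0.022, Bmp1 1426238_at -0.020 to 0.20 and Pcolce 1437165_a_at -0.038 to 0.22. For ILKR211A Tg against ILKS343D Tg, P4hb was -0.068 with the WT set in the same range, the range block and the replicate block within ranges, and Plod3 was -0.018 with quantile normalization. Without single mice, Plod3 was -0.023 to 0.043, Bmp1 -0.19 to 0.027 and -0.094 to 0.15, and Pcolce 1437165_a_at -0.041 to 0.22.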
